A study of Homo sapiens with 5 samples.

Results

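The 10 genes described here are the Notch ligands JAG1 and JAG2, the Notch receptors NOTCH1, NOTCH2 and NOTCH3, and the HES and HEY genes HES1, HES2, HES4, HES6 and HEY1, out of 26485 genes in the deposited count table. They were taken by gene symbol. HES2 was chosen by its rise after doxorubicin in these same libraries, and the other 9 were added to ask whether genes of its family and of the pathway that controls such genes move with it. The rise of HES2 is therefore given as a description, with no test. RNA-seq was performed on RPE1 cells of wild type genotype, a cultured human line that was derived from retinal pigment epithelium and immortalised with telomerase. Of the 5 libraries, 2 came from cells given DMSO, the solvent of the drug, 2 from cells given 0.2 µM doxorubicin and 1 from cells given 0.34 µM doxorubicin, each for 18 h. The labels do not say whether libraries of the same condition came from separate cultures, while the methods of the study call them biological replicates. If they did not, the p-values measure technical spread only. Doxorubicin is an anthracycline that intercalates into DNA and inhibits topoisomerase 2.

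Notch is a receptor that is activated by a ligand on a neighbouring cell. Ligands of the Jagged and Delta families bind it, proteases then cut the receptor, and its freed intracellular part joins the DNA-binding protein RBPJ and a Mastermind coactivator in the nucleus. The best known targets of that complex are the HES and HEY genes, which encode basic helix-loop-helix repressors. HES1 and HEY1 are classical targets, HES6 is known to oppose HES1, and HES2 is a little studied member of the family. Many signals other than Notch also act on these genes.

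RBPJ is known to bind DNA at a core of 6 bases, TGGGAA. For 9 of the 10 genes a sequence upstream of the start was at hand (RefSeq, GRCh38.p14), and it was searched on both strands over the 250 bases before the start. The 3 windows below show a classical Notch target with a pair of such cores (HES1), a family member with a single core (HES4) and the gene with the largest rise, which had none (HES2). They are printed 5′ to 3′ on the strand of the gene, with each RBPJ core in capitals, and lie at chr3:194135898-194136147 (plus strand), chr1:1000098-1000347 (minus strand) and chr1:6419920-6420169 (minus strand).
HES1: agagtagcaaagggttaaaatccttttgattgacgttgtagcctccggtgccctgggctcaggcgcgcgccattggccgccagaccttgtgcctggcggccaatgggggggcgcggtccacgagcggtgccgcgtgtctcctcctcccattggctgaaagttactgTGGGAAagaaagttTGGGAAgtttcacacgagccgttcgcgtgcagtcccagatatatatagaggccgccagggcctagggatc
HES4: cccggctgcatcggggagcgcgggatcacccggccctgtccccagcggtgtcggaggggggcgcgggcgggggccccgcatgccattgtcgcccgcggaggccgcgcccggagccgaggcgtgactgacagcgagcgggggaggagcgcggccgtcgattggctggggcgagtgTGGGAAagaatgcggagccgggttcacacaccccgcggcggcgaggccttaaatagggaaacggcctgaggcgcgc
HES2: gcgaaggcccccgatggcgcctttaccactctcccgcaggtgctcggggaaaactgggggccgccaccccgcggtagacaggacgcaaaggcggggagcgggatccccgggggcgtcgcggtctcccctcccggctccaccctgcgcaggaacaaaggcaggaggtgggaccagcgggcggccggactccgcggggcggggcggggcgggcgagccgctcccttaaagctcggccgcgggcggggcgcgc

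The cores of HES1 began 84 and 70 bases before the start, and that of HES4 began 76 bases before it. A core on either strand was found in 21.1% of 27305 upstream windows of the same length, and at least 2 on the same strand in 1.74%. No core was found in the windows of HES2, HES6, JAG1, JAG2, NOTCH1, NOTCH2 or NOTCH3. The N-box (CACNAG), which HES proteins are known to bind, was found 3 times in HES1 and once in NOTCH3, and in 32.0% of all windows. The class C site (CACGCG), another site of HES and HEY proteins, was found 2 times in HES1 and once in JAG2, and in 9.62% of all windows. The E-box (CACGTG) and the half-site of p53 were found in none of the 9 windows and in 6.49% and 5.53% of all windows. No matches overlapped each other. The share of G and C was 59.2% in the HES1 window and between 68.4% and 81.6% in the other 8. A match is a stretch of letters and not a measured binding site, and a missing match holds for this window only.

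**Figure D1:**
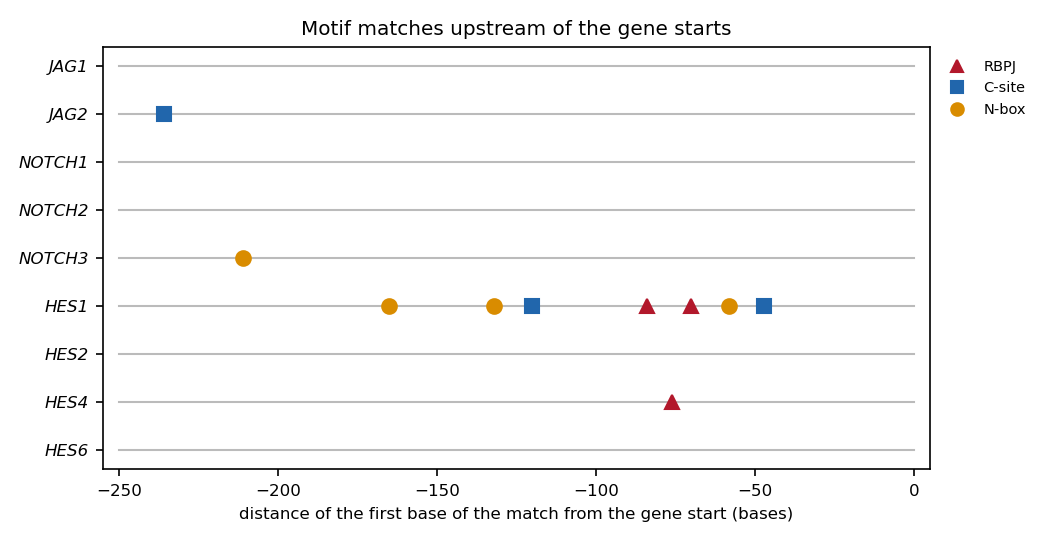
Matches to the RBPJ core, the class C site and the N-box in the 250 bases before the start of 9 genes, by the distance of the first base of the match from the start. HES1 holds 2 RBPJ cores at 84 and 70 bases before the start and HES4 holds 1 at 76 bases, while the lines of HES2 and HES6 are empty.

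The counts on genes summed to between 23773061 and 36725345 per library. The normalised levels below are CPM, the counts of a gene relative to the total of its library, after scaling by TMM, a method that sets the bulk of genes equal between libraries. A test was run over all 14187 genes that passed a filter on low counts, with the 3 doxorubicin libraries as a single group and a threshold of 0.01 on the adjusted p. Fold changes are doxorubicin over DMSO, and SE is their standard error on the log2 scale. Past that threshold, 10 of 10 listed p53 targets were higher and 10 of 10 listed G2/M genes were lower, with median log2 fold changes of 2.36 and -3.50. Of all genes tested, 1.29% passed as higher and 2.73% as lower. The lists were compiled with earlier results of these data known, so these counts describe the libraries and are not an independent check of the treatment. The summed levels of the G2/M genes were 2177 and 2203 CPM in DMSO and 180 to 275 CPM after doxorubicin, and the part of this shift in the results for the Notch genes was not tested. Of the markers of retinal pigment epithelium, MITF (743 to 1503 counts) and OTX2 (601 to 887 counts) were present in every library, while RPE65, RLBP1, TYR and TTR had at most 8 counts in any. Of 10 such markers 4 were tested and 0 passed the threshold. PMEL (7 and 5 counts in DMSO, 22 to 46 after doxorubicin, adjusted p = 0.0264, edgeR) and BEST1 (26 and 14, then 30 to 142 counts, adjusted p = 0.0823) lay above DMSO in every doxorubicin library, and LRAT (6 and 25, then 1 to 4 counts) lay below it. Of 5 markers of blood and vessel cells 3 were tested and 0 passed, and their summed levels were 0.572 and 2.94 CPM in DMSO and 2.05 to 5.74 CPM after doxorubicin. CDH5 made up most of that sum in the replicate 2 libraries (2.19 and 2.87 CPM), while PTPRC (0.191 and 0.274 CPM in DMSO, 0.967 to 2.20 CPM after doxorubicin, adjusted p = 0.0212, edgeR), PECAM1 and VWF lay above DMSO in every doxorubicin library. PMEL, PTPRC and VWF passed the filter on low counts only through their doxorubicin libraries. A high level after doxorubicin was thus part of how these genes came to be tested. The part of these low-level markers in the results for the Notch genes was not tested. In RNA from a whole culture, a change in the share of cells that express a gene and a change in the level per cell cannot be told apart.

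HES2 (chromosome 1 of GRCh38, 6415232 to 6419919) was almost silent in DMSO and was present in every doxorubicin library. It had 1 and 0 counts in the DMSO libraries, 135 and 136 counts at 0.2 µM and 366 counts at 0.34 µM. In CPM these were 0.0381 and 0, then 5.22 and 5.65, then 10.1. The groups did not overlap, and the pair at 0.2 µM lay close together. The ratio of doxorubicin to DMSO was 382 over all libraries, with an exact 95% counting interval of 68.4 to 15126 that covers counting error only. The wide interval comes from the single read in DMSO. Of the 11874 genes tested with a log2 of the average CPM of at least 1, HES2 had the largest fitted fold change, and it had the fourth largest of all 14187, which are the values it was chosen by. HES2 passed the filter on low counts, and reached that limit on the average CPM, only through its doxorubicin libraries.

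The genes around HES2 on chromosome 1, looked up after its values were seen, did not show a rise of this size. The nearest listed genes on its lower side were ACOT7, with 1407 and 2478 counts in DMSO and 1640 to 2278 after doxorubicin, GPR153, with 105 to 133 counts in DMSO and 71 to 161 after doxorubicin, and HES3, another HES gene, with 0 counts in every library. On the upper side ESPN had 1 to 6 counts in every library and MIR4252 had 0. TNFRSF25, the next gene, had 156 and 159 counts in DMSO and 250, 218 and 329 after doxorubicin, with a log2 change of 0.61 (SE 0.20) that did not pass the threshold (adjusted p = 0.0960, edgeR). RefSeq places no other gene over HES2.

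The tested genes whose profiles over the 5 libraries were most like that of HES2 were CLCA2, LINC01164, PRODH, SULF2 and FLG-AS1. The measure was the root mean square difference between log2 CPM values, each centred on the gene's own mean, and it ran from 0.461 for CLCA2 to 0.775 for FLG-AS1. CLCA2, the closest, had 5 and 5 counts in DMSO and 236, 561 and 836 after doxorubicin. PRODH had 1 and 2 counts in DMSO and 160, 389 and 892 after doxorubicin. None of these 5 genes belongs to the Notch pathway list used here. Their likeness rests on the same contrast that chose HES2 and was not tested.

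Among the other HES and HEY genes, none had a rise near that of HES2. Of the 9 members other than HES2, NOTCH3 failed the filter on low counts and 8 were tested, of which 1 passed the threshold as higher (NOTCH1) and 0 as lower. Over all genes tested, 1.29% passed as higher and 2.73% as lower. In JAG1, JAG2, NOTCH1 and HES6 every doxorubicin library was above the DMSO pair, which held for 24.3% of all genes tested. In HEY1 every one was below it, which held for 23.4%. HES1, HES4, NOTCH2 and NOTCH3 overlapped between the groups.

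HES1 (chromosome 3, 194136148 to 194138732), the classical Notch target, did not differ detectably between the treatments. Its levels were 26.8 and 11.2 CPM in DMSO, 23.6 and 6.19 CPM at 0.2 µM and 28.7 CPM at 0.34 µM. Replicate 2 was the lower library in both conditions that have a pair, so that the libraries of a single condition lay farther apart than the treatments did. The log2 fold change was 0.04 (SE 0.64, adjusted p = 0.977, edgeR), and its sign depended on the libraries used: leaving out DMSO replicate 2 gave -0.47 and leaving out DMSO replicate 1 gave 0.80. It was also below 0 without replicate 1 of 0.2 µM (-0.10) and without the 0.34 µM library (-0.34).

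HES4 (chromosome 1, 998964 to 1000097), a close relative of HES1, had 2.82 and 2.94 CPM in DMSO, 6.84 and 2.45 CPM at 0.2 µM and 5.15 CPM at 0.34 µM. Replicate 2 of 0.2 µM lay below both DMSO libraries and the other doxorubicin libraries lay above them. Its log2 fold change of 0.74 (SE 0.44) did not pass the threshold (adjusted p = 0.310, edgeR).

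HES6 (chromosome 2, 238238267 to 238240038), which encodes an inhibitor of HES1, had 1.49 and 3.13 CPM in DMSO, 4.52 and 8.07 CPM at 0.2 µM and 9.18 CPM at 0.34 µM. The groups did not overlap, and within DMSO and within 0.2 µM replicate 2 was the higher library. HES6 had a fitted log2 change of 1.65 (SE 0.46), which missed the threshold (adjusted p = 0.0587, edgeR) and passed it in DESeq2 (adjusted p = 0.00315). Leaving out single libraries moved it between 1.20 without DMSO replicate 1 and 2.27 without DMSO replicate 2.

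HEY1 (chromosome 8, 79764010 to 79767767), the other classical target, was close to the lower limit of detection. It had 15 and 32 counts in DMSO, 6 and 3 counts at 0.2 µM and 11 counts in the deeper library at 0.34 µM. All doxorubicin libraries were below both DMSO libraries, opposite to HES2 and HES6. The log2 fold change was -1.99 (SE 0.57), which missed the threshold (adjusted p = 0.0657, edgeR), and it was between -2.46 and -1.34 with a library left out. HEY1 passed the filter on low counts only through its DMSO libraries, so that a high level in DMSO was part of how it came to be tested.

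**Figure D2:**
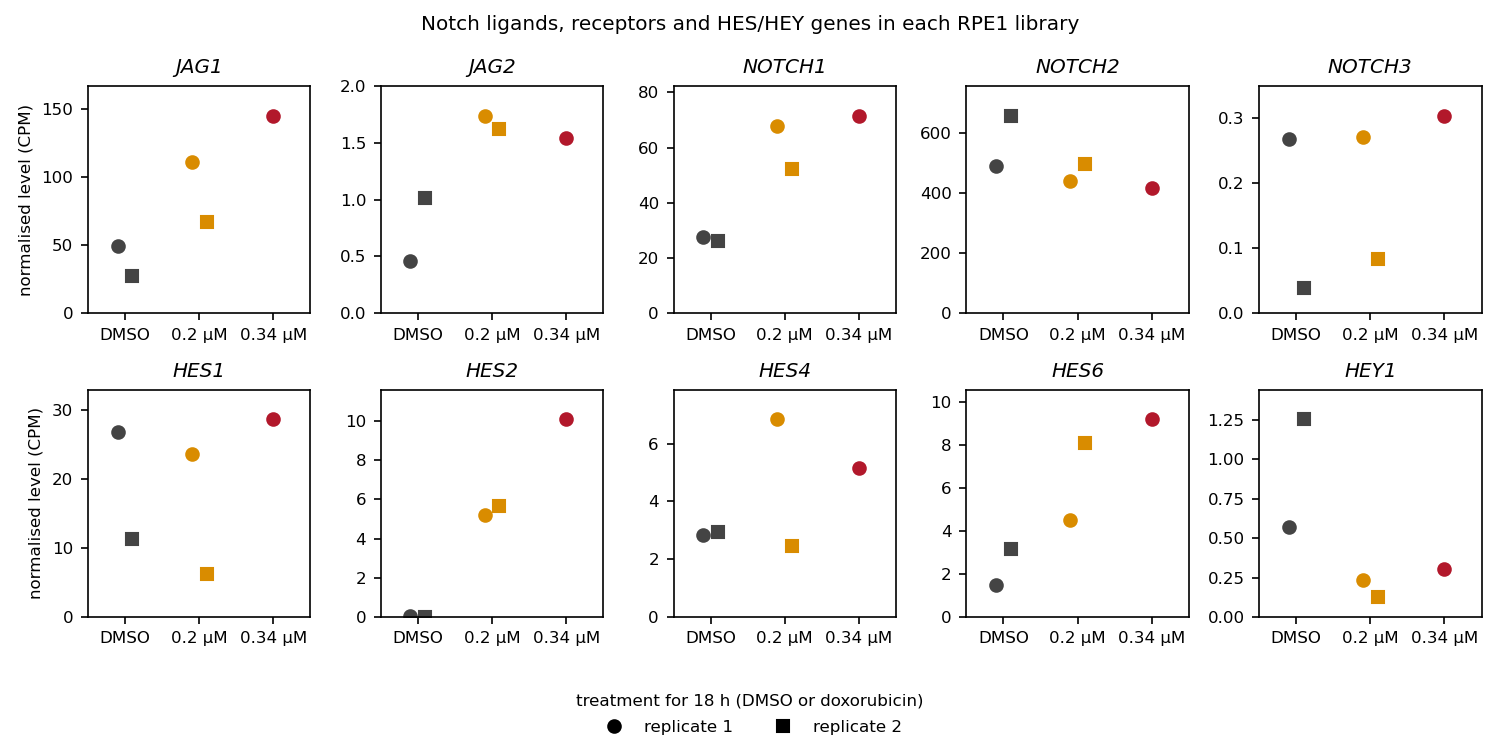
Normalised level in CPM (linear axes from 0) of the 10 genes in each library, by treatment, with replicates 1 and 2 as circles and squares. HES2 lies at 0 to 0.0381 CPM in DMSO and at 5.22 to 10.1 CPM in doxorubicin, JAG1 and NOTCH1 lie higher in all 3 doxorubicin libraries, and HES1 is low in both replicate 2 libraries.

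Of the receptors, NOTCH1 rose. NOTCH1 (chromosome 9, 136494433 to 136546048) had 27.7 and 26.3 CPM in DMSO, a mean of 27.0 ± 0.998 (SD, n = 2). After doxorubicin it had 67.8 and 52.2 CPM at 0.2 µM and 71.6 CPM at 0.34 µM, a mean of 63.9 ± 10.3 (SD, n = 3). The DMSO pair agreed closely, and every doxorubicin library lay well above it. The log2 fold change was 1.24 (SE 0.19, adjusted p = 0.00964, quasi-likelihood test of edgeR), a fold of 2.36. The size of the change was stable, between 1.16 and 1.37 with a library left out, but the call lay at the edge of the threshold. It was lost without any 1 of the 5 libraries, with adjusted p-values of 0.0397 and 0.0447 without DMSO replicate 1 or 2, 0.0417 and 0.0114 without replicate 1 or 2 of 0.2 µM and 0.0480 without the 0.34 µM library (edgeR), and also in limma voom (adjusted p = 0.0110). LOC124902310 and MIR4673 lie within NOTCH1, so that its counts could include reads of them.

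NOTCH2 (chromosome 1, 119911553 to 120069662) was the receptor with the highest level and did not rise. It had 489 and 657 CPM in DMSO, 439 and 496 CPM at 0.2 µM and 417 CPM at 0.34 µM. Replicate 2 of 0.2 µM lay between the DMSO libraries and the other doxorubicin libraries lay below both. Its log2 fold change of -0.35 (SE 0.19) did not pass the threshold (adjusted p = 0.261, edgeR). NOTCH2NL, a near-identical partial copy, had 31.8 and 57.2 CPM in DMSO and 31.7 to 44.6 CPM after doxorubicin, and reads shared between NOTCH2 and its copies make both levels uncertain. NOTCH3 (chromosome 19, 15159038 to 15200995) was barely present, with 7 and 1 counts in DMSO, 7 and 2 counts at 0.2 µM and 11 counts at 0.34 µM. A change of NOTCH3 was not detectable at this depth.

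Both ligands lay higher in all doxorubicin libraries, and neither passed the threshold. JAG1 (chromosome 20, 10637684 to 10673999), the more abundant of the pair, had 49.4 and 27.5 CPM in DMSO, 111 and 67.2 CPM at 0.2 µM and 145 CPM at 0.34 µM. Replicate 2 was the lower library in both pairs, as in HES1, but here the lowest doxorubicin library still exceeded the highest DMSO library. For JAG1 the log2 change was 1.49 (SE 0.39), a fold of 2.80, with an adjusted p of 0.0501 from edgeR and of 0.000780 from DESeq2. With a library left out it was between 1.11 without DMSO replicate 2 and 1.97 without DMSO replicate 1. JAG2 (chromosome 14, 105140995 to 105168776) was a scarce transcript, with 12 and 26 counts in DMSO, 45 and 39 counts at 0.2 µM and 56 counts at 0.34 µM. In CPM these were 0.458 and 1.02, then 1.74 and 1.62, then 1.54, so that the doxorubicin libraries lay close together and the DMSO pair lay apart. The log2 fold change of JAG2 was 1.14 (SE 0.44, adjusted p = 0.137, edgeR), and it was between 0.67 without DMSO replicate 1 and 1.81 without DMSO replicate 2. Annotated miRNA genes lie within JAG1 (MIR6870), JAG2 (MIR6765) and NOTCH3 (MIR6795).

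**Figure D3:**
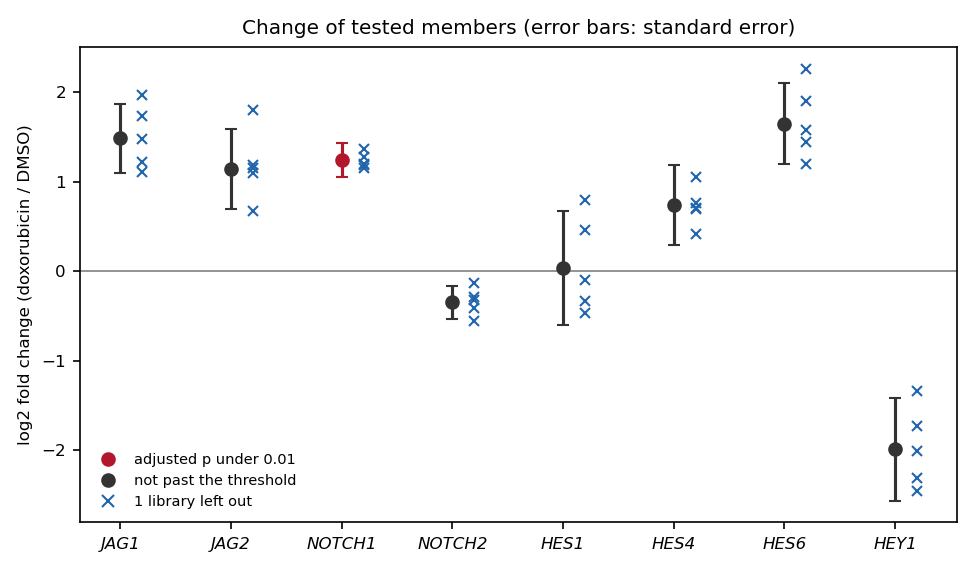
Log2 fold change of doxorubicin over DMSO of the 8 tested members other than HES2, with standard errors (circles) and the values with 1 library left out in turn (crosses). NOTCH1 at 1.24 is the member past the threshold, the crosses of HES1 lie on both sides of 0, and HEY1 at -1.99 lies opposite to JAG1, JAG2 and HES6.

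To compare levels between genes, CPM were divided by the length in kb of each gene's Ensembl canonical transcript (GENCODE), which may not be the transcript made in these cells. In DMSO, NOTCH2 had the highest level per length (50.1 ± 10.4 CPM per kb; SD, n = 2), followed by HES1 (12.1 ± 6.99) and JAG1 (6.48 ± 2.61), and the libraries of HES1 and JAG1 overlapped. HES4 (3.25 ± 0.0916), NOTCH1 (2.82 ± 0.104) and HES6 (1.69 ± 0.851) came next in level per length and did not overlap with each other. HEY1 (0.415 ± 0.219), JAG2 (0.128 ± 0.0687) and NOTCH3 (0.0176 ± 0.0186) were lower. HES2 had the lowest mean, but its DMSO libraries overlapped with those of NOTCH3. After doxorubicin NOTCH2 was still first (39.5 ± 3.54 CPM per kb; SD, n = 3) and JAG1 was second (18.1 ± 6.57). HES1 (12.4 ± 7.48), NOTCH1 (6.67 ± 1.07), HES4 (5.44 ± 2.50) and HES6 (5.30 ± 1.78) formed a group whose neighbours in level per length overlapped, and HES1 also overlapped with JAG1. HES2 reached 1.64 ± 0.632 CPM per kb, the seventh place, below the lowest library of HES6 (3.31) and above JAG2 (0.283 ± 0.0172). Thus HES2 had the largest relative rise but stayed below HES1, HES4 and HES6 in level per length.

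The doses were compared within the doxorubicin libraries. In edgeR 0 of 14187 genes passed the threshold (0%), with 22 genes at an unadjusted p under 0.05, and DESeq2 and limma voom called 0 as well. The 0.34 µM condition has a single library, whose spread is assumed to be that of the other groups. HES2 had 10.1 CPM at 0.34 µM and 5.22 and 5.65 CPM at 0.2 µM, which is given without a test because the 0.34 µM library was among those it was chosen by. HES1 had the largest log2 difference of the other members, 0.94 (SE 0.76), followed by HEY1 at 0.74 (SE 0.92), JAG1 at 0.70 (SE 0.42), HES6 at 0.54 (SE 0.58) and NOTCH1 at 0.25 (SE 0.28). In each of these genes the 0.34 µM library was the highest of the doxorubicin libraries, whether the gene lay above DMSO, overlapped with it or lay below it. They are the members with the largest positive differences, which favours this order, and its share over all genes tested was not determined. The difference of HES1 lay mainly against replicate 2 of 0.2 µM, which had 6.19 CPM. Replicate 1 of 0.2 µM had 23.6 CPM and the 0.34 µM library 28.7 CPM. HES4 had a log2 difference of 0.15 (SE 0.64), JAG2 one of -0.12 (SE 0.68) and NOTCH2 one of -0.16 (SE 0.31). None of these differences passed the threshold, and with 1 library at the higher dose they do not show that the doses act alike.

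The other genes of the pathway were taken from a list of 72 genes by role, of which 61 were tested. Of these, 1 passed the threshold as higher (MIB2) and 2 as lower (NEURL1B and TLE3), against 1.29% and 2.73% of all genes tested. The median log2 fold change of the list was -0.07 and that of all genes tested 0.01. MIB2, a ubiquitin ligase that promotes the endocytosis of Notch ligands, had 22.0 and 21.5 CPM in DMSO, 54.2 and 51.3 CPM at 0.2 µM and 64.7 CPM at 0.34 µM. The log2 change of MIB2 was 1.39 (SE 0.17, adjusted p = 0.00476, edgeR). NEURL1B, a ubiquitin ligase of the Neuralized family that also acts on ligands, had 14.8 and 19.1 CPM in DMSO, 3.75 and 5.86 CPM at 0.2 µM and 5.24 CPM at 0.34 µM. NEURL1B had a log2 change of -1.78 (SE 0.26, adjusted p = 0.00811, edgeR), so that both ligases of ligand endocytosis that passed went in opposite directions. MIB1, the best known ligase of this step, had a log2 change of -0.07 (SE 0.14). TLE3, a Groucho corepressor that HES proteins recruit, had 93.5 and 79.4 CPM in DMSO, 29.3 and 13.5 CPM at 0.2 µM and 22.5 CPM at 0.34 µM. Its log2 change was -1.99 (SE 0.31, adjusted p = 0.00996, edgeR). In each of these 3 genes the groups did not overlap. Of all genes tested, 24.3% lay above DMSO in every doxorubicin library and 23.4% lay below it. The 3 genes were picked by the threshold, so the lack of overlap adds no support to their calls. None of the 3 calls held in edgeR without any 1 of the 5 libraries.

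Of the genes of the nuclear complex none passed the threshold. Of 8 tested, 7 had a log2 fold change below 0, as had 6933 of all 14187 genes tested, the median was -0.45, and in 5 all doxorubicin libraries lay below both DMSO libraries, against 23.4% of all genes tested. RBPJ had a log2 change of -0.25 (SE 0.22). The largest difference in this role was that of MAML3, a Mastermind coactivator, at -1.35 (SE 0.22, adjusted p = 0.0119, edgeR). This direction was not particular to the nuclear complex. Of 9 RBPJ corepressors tested, 7 were below 0 and 2 above, with a median of -0.30, and 3 lay below DMSO in every doxorubicin library. Of 6 tested partners of basic helix-loop-helix factors and ID genes, 5 were below 0 and 1 above. Their median was -0.47, and 4 lay below DMSO in every doxorubicin library. Of 9 genes for receptor cleavage, which include the secretases, 8 had a log2 fold change above 0, as had 7254 of all 14187, with a median of 0.29 and with 0 past the threshold. In 3 of the 9 all doxorubicin libraries lay above both DMSO libraries, against 24.3% of all genes tested. The largest there was APH1B, a subunit of gamma-secretase, at 1.04 (SE 0.27, adjusted p = 0.0501, edgeR).

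In the other roles the largest differences did not pass the threshold. Among the ligands outside the members, DLL3 had a log2 fold change of 1.35 with an SE of 1.23, from 12 and 0 counts in DMSO and 3 to 40 counts after doxorubicin. DLL1 had 25 and 37 counts in DMSO and 25 to 44 after doxorubicin, DLL4 had at most 1 count in any library, and DLK1 had 0. NOTCH4 had 6 to 18 counts in all libraries. RFNG, a Fringe glycosyltransferase of the receptor, had a log2 change of 0.85 (adjusted p = 0.0623, edgeR), and FHL1, an RBPJ-binding corepressor, had one of -0.72 (adjusted p = 0.329, edgeR). DTX4, of the Deltex family of ubiquitin ligases, had one of 1.89 (SE 0.67, adjusted p = 0.110, edgeR), with 8 and 9 counts in DMSO and 12, 33 and 66 after doxorubicin, and it passed the filter on low counts through the latter. BHLHE41, a repressor related to HES proteins, had one of -1.13 (adjusted p = 0.0132, edgeR), while its relative BHLHE40, chosen after its values were seen, had one of 1.07 (adjusted p = 0.0179, edgeR). TCF3, a partner of basic helix-loop-helix factors, had one of -0.91 (adjusted p = 0.0185, edgeR). Of the remaining HES and HEY genes, HES5, HEY2 and HEYL had at most 4 counts in any library, HES3 and HELT had 0, and HES7 had 14 to 26. Of the HES and HEY genes, only HES2 went from at most 1 count in DMSO to over 100 in each doxorubicin library. These limits were set with its counts known, and HES2 was chosen by that rise, so this is a description only.

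**Figure D4:**
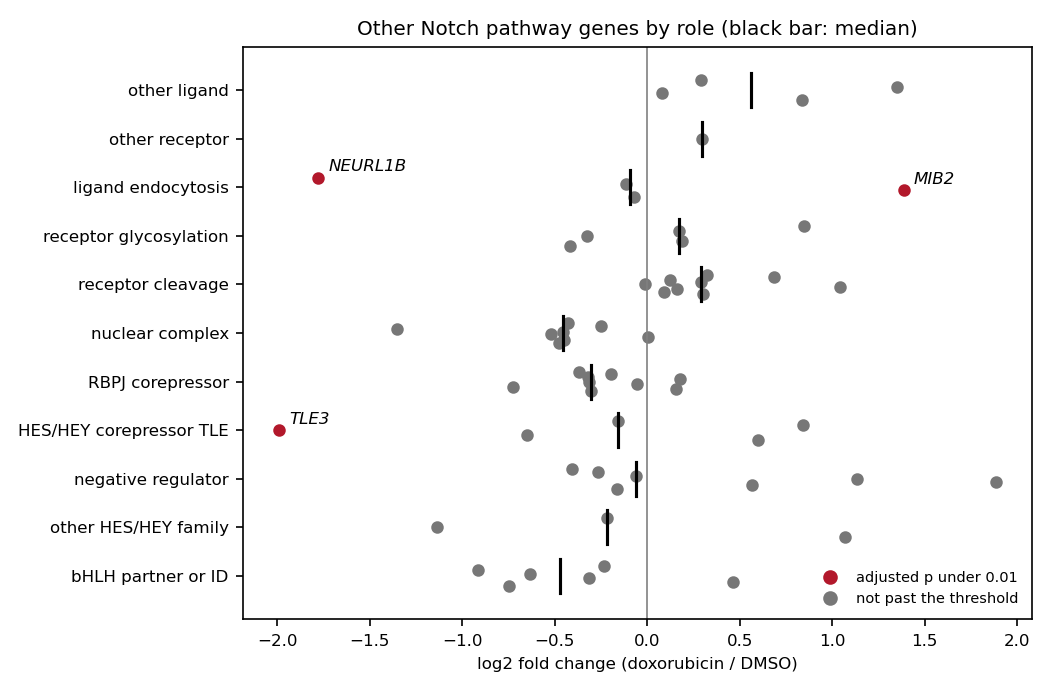
Log2 fold change of doxorubicin over DMSO of the 61 tested genes of the pathway list by role, with the median of each role as a black bar. MIB2 at 1.39, NEURL1B at -1.78 and TLE3 at -1.99 are the genes past the threshold. Below 0 lie 7 of the 8 genes of the nuclear complex, 7 of the 9 RBPJ corepressors and 5 of the 6 basic helix-loop-helix partners and ID genes.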

How the data were processed

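RNA-seq libraries of poly-A RNA from RPE1 cells (2 DMSO, 2 at 0.2 µM and 1 at 0.34 µM doxorubicin, 18 h) were used. The concentrations are those of the sample labels, while the treatment protocol in the labels gives 340 and 200 µM. The unit of the deposited table is the raw count per gene, which the authors obtained with STAR on hg38 and with Rsubread featureCounts on the iGenomes annotation. For versions and the strand setting of the counting nothing is given in the sources used here, so that reads of overlapping genes cannot be told apart. The second deposited file holds the authors' own DESeq2 fold changes and p-values and was not used.

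Tests used edgeR 4.0.16 under R 4.3.3 (TMM, quasi-likelihood test, Benjamini-Hochberg adjustment over all genes tested, threshold 0.01). The default filter asked for a level of about 10 counts in as many libraries as the smallest treatment group holds, and for 15 counts in total. Standard errors were derived from F, as the size of the log2 change over the root of F. Log2 CPM used a prior count of 2. DESeq2 1.42.0, limma 3.58.1 (voom), other size factors, no filter, a threshold of 0.05, the 0.2 µM libraries alone, each library left out in turn and a replicate block were alternatives. The script was tested on simulated data. Depth was 23773061 to 36725345 counts per library. The members, the gene lists, compiled from general knowledge, and the tests were chosen with earlier results of these data known. All members are named, with the pathway genes past the threshold, the largest difference in each role and the 5 genes most like HES2. Other genes are named for their low counts or chosen after their values were seen. The row AES was used for TLE5. A marker of the list for other cell types is not reported here. Gene positions, upstream sequences and overlaps are from RefSeq (GRCh38.p14), with an upstream sequence for 9 of the 10 members, and transcript lengths are from GENCODE v44 lifted to GRCh37.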

Additional observations from a re-analysis of the deposited data

How the results depend on the processing

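Of the 8 tested members other than HES2, NOTCH1 passed in the reported fit. The number of members past the threshold was 3 in DESeq2 (NOTCH1, JAG1 and HES6), 0 in limma voom, 0 with the 0.2 µM libraries alone and 0 to 0 with any library left out. For the pathway list it was 3 in the reported fit, 11 in DESeq2, 7 with no filter, 10 at a threshold of 0.05, 0 with the 0.2 µM libraries alone and 0 to 0 with any library left out. Over all genes it was 571 in the reported fit, 2028 in DESeq2, 1020 with no filter, 1927 at a threshold of 0.05, 178 with the 0.2 µM libraries alone and from 49 without DMSO replicate 2 to 215 without DMSO replicate 1 with a library left out. The log2 fold change of HES1 was below 0 in limma voom (-0.056), with the 0.2 µM libraries alone (-0.34) and in 3 of the fits with a library left out, which ranged from -0.47 to 0.80. The direction of the other tested members was the same under all 12 alternatives, which are not all separate fits. The threshold of 0.05 uses the reported fit, so its directions could not differ. The fit of the 0.2 µM libraries alone is the same as that without the 0.34 µM library. For the changes between fits the cause was not tested, apart from the fewer libraries in the fits that leave some out.

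The labels number only the second library of the DMSO and 0.2 µM pairs, the other was taken as replicate 1, and they do not say what the number marks. Across 14187 genes, the difference of replicate 2 from replicate 1 in DMSO correlated with that at 0.2 µM (r = 0.528), where genes are not independent replicates. With a replicate block on these 4 libraries, 1249 genes passed, with 3 of the members (NOTCH1, JAG1 and HES6) and 9 of the pathway list, and the log2 fold change of HES1 was -0.50 (adjusted p = 0.262, edgeR). Depth limits NOTCH3, HEY1, JAG2 and HES2 in DMSO, which had at most 32 counts in any DMSO library.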

Other observations

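DNER, a transmembrane protein described as a Notch ligand, was among the ligands of the pathway list the one with the highest counts and is named here after its values were seen. It had 2306 and 8530 counts in DMSO, 4477 and 10627 counts at 0.2 µM and 5816 counts at 0.34 µM. Replicate 2 was the higher library in both pairs, opposite to HES1 and JAG1, and the log2 fold change after doxorubicin was 0.29 (SE 0.64, adjusted p = 0.800, edgeR). In log2 CPM, replicate 2 differed from replicate 1 by -1.25 in DMSO and -1.92 at 0.2 µM in HES1, and by -0.84 and -0.72 in JAG1. HES6 differed the other way, by 1.04 and 0.82. Of the 9 tested members, 5 had the same sign of this difference in both pairs.

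NRARP, a known Notch target that feeds back on the pathway, failed the filter on low counts. It had 10 and 10 counts in DMSO, 3 and 1 counts at 0.2 µM and 6 counts at 0.34 µM. Like HEY1, NRARP was lower in all doxorubicin libraries, as were 23.4% of all genes tested, while HES1 overlapped between the groups. NRARP was named after its values were seen. FBXW7, a ubiquitin ligase for the intracellular part of Notch, was also named after its values were seen. It had 14.7 and 12.0 CPM in DMSO, 26.8 and 31.1 CPM at 0.2 µM and 29.8 CPM at 0.34 µM, and lay just outside the threshold (log2 change of 1.13, SE 0.18, adjusted p = 0.0110, edgeR).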
